A study of Mus musculus with 18 samples.

Results

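Metformin-fed livers were set directly against rapamycin-fed livers, gene by gene, with the ad libitum controls left out of the ratio. Each compound had been given in chow to 3 C57BL/6J mice for 8 weeks from 21 weeks of age, metformin at 37.5 mg/kg/day and rapamycin at 42 mg/kg/day, and RNA was taken from whole, PBS-perfused liver. These 6 libraries were part of 18, which also covered ad libitum controls, the compound TM5614 and 30% caloric restriction. The comparison takes every gene whose mean over the 5 group means was at least 10 normalized counts, which kept 11201 of the 12019 genes listed. For each of them the log2 ratio is log2 of the metformin mean plus 1 over the rapamycin mean plus 1, so that a positive value is higher under metformin. Sex, cage, sequencing batch and hour of collection are not given in the labels used here, nor do the labels say in words that each library is a separate mouse, so p-values measure the spread between these libraries.

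Metformin is a biguanide used against type 2 diabetes. It is taken up by hepatocytes and is known for inhibiting respiratory complex I, for activating the energy sensor AMPK and for lowering hepatic glucose output. Rapamycin binds FKBP12, the product of Fkbp1a, and the pair blocks mTOR complex 1, the kinase hub that couples amino acids and insulin to protein synthesis, ribosome production, lipogenesis and autophagy. AMPK and mTOR complex 1 are parts of one nutrient-sensing network, and both compounds have been studied for effects on ageing in mice.

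The deposited table gives group means only, which carry no spread. Each mean is a sum of whole reads from 3 libraries, each read worth a fixed amount in its library, and that arithmetic was solved to recover the values of the single libraries. It gave all 6 values for 8965 of the 11201 genes (80%). The other 2236 genes are mostly the abundant ones, with a median mean of 987 normalized counts against 101 for the recovered genes, and only their means are reported. Libraries are called A, B and C within each group, from the deepest to the shallowest; these letters are not the replicate numbers of the labels. Rapamycin library A stood apart from the other rapamycin libraries: 151 genes were at least 2-fold above both others and 156 at least 2-fold below both. Metformin libraries A and B also each had genes away from both partners, with 107 above and 161 below in A, and 83 above and 213 below in B, against 46 and 57 in metformin library C. Albumin (Alb), the defining hepatocyte product, had a mean of 668650 normalized counts under metformin and 557685 under rapamycin, and the median log2 ratio of 8 hepatocyte markers was 0.13.

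Most genes were close to the same level under both compounds. The median log2 ratio was 0.00, the middle 90% of genes lay between -0.49 and 0.58, and 88.4% lay within 0.5 of zero. Genes at least 2-fold higher under metformin numbered 117 (1.04% of 11201), and those at least 2-fold lower numbered 154 (1.37%). Among the 8965 genes with values per library, 104 were at least 2-fold higher (1.16%) and 108 at least 2-fold lower (1.2%). Of these, 69 higher genes and 41 lower genes had no overlap between the 3 metformin and the 3 rapamycin libraries. Absence of overlap was itself common, at 696 genes in the higher direction (7.76%) and 561 in the lower (6.26%). A limma test of the 6 libraries, with Benjamini-Hochberg adjustment over the 8965 genes, called 0 genes at an adjusted p under 0.05 (0%). The smallest adjusted p by limma was 0.0897, 725 genes had an unadjusted p under 0.05 (8.09%; 412 higher, 4.6%, and 313 lower, 3.49%), and limma's voom variant on the recovered reads also called 0. No gene named below passed that threshold with all 6 libraries of these groups alone, so "higher" and "lower" describe these libraries.

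**Figure D1:**
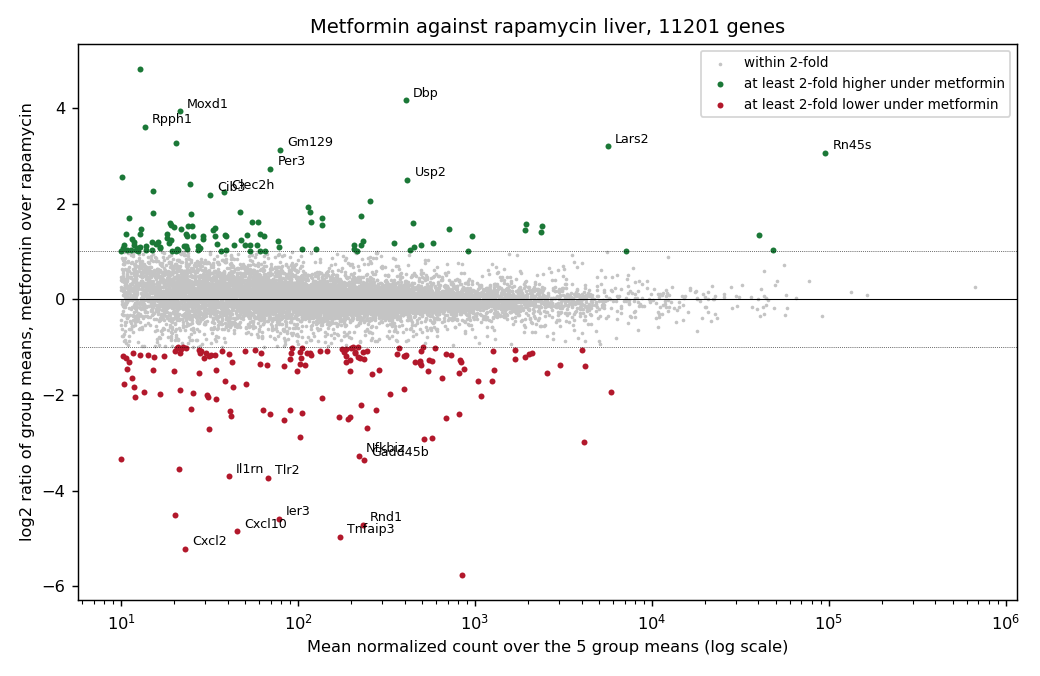
Log2 ratio of group means, metformin over rapamycin (vertical axis), against the mean normalized count over the 5 group means (horizontal axis, log scale), 1 point per gene. Green points are at least 2-fold higher under metformin (117 genes) and red points at least 2-fold lower (154 genes). The named genes are from the 10 highest and 10 lowest with at least 50 normalized counts in the higher group; Dbp stands highest among them at 4.16, and Cxcl2 lies at -5.22.

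The side of the contrast that is lower under metformin leaned on rapamycin library A. Of the 108 recovered genes at least 2-fold lower, 69 were among those at least 2-fold above both other rapamycin libraries in A. Without rapamycin library A, 47 recovered genes were at least 2-fold lower (0.524%), 31 of them shared with the 108, while 114 were at least 2-fold higher (1.27%). Values without this library are given beside those with it where the rapamycin mean was mainly that library's.

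Genes of the compounds' own targets were at similar levels. Mtor, the kinase itself, had a mean of 464 normalized counts under metformin and 528 under rapamycin, and Rptor, which recruits substrates to complex 1, had 292 and 320. Fkbp1a, the rapamycin receptor, had 435 under metformin and 496 under rapamycin. None of 37 listed mTOR complex members and regulators was 2-fold apart in either direction, and their median log2 ratio was 0.08 beside 0.00 for all genes. Here and below, the size of a list is its number of members at the expression threshold, and recovered members are those with values for all 6 libraries. Among the 21 recovered members, 3 were higher without overlap and 2 lower, beside 7.76% and 6.26% of all recovered genes. Sesn1, a stress-induced sestrin that restrains complex 1, stood at 132, 112 and 109 normalized counts in metformin libraries A, B and C and at 82.7, 79.7 and 84.1 in the rapamycin libraries. Nprl3, a subunit of the amino acid sensing GATOR1 complex, went the other way at 66.7, 54.7 and 71.6 under metformin against 94.3, 113 and 85.1 under rapamycin. Both genes separated the groups, by a log2 ratio of 0.51 for Sesn1 and -0.59 for Nprl3, and limma gave adjusted p of 0.547 and 0.566 for them.

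Energy-sensing genes were all within 2-fold, with more of them separated downwards than over all genes. The AMPK catalytic subunits Prkaa1 and Prkaa2 had means of 129 and 579 under metformin against 154 and 630 under rapamycin. Of 25 listed AMPK subunits, upstream kinases and energy sensors, 0 were 2-fold apart, and of the 19 recovered, 1 was higher and 6 lower without overlap, beside 7.76% and 6.26% of all recovered genes. The list median was -0.05. Fnip2, a folliculin partner that joins lysosomal nutrient sensing to AMPK, was the one higher, at 266, 280 and 256 under metformin and 204, 184 and 179 under rapamycin. Gpd2, the mitochondrial glycerol-3-phosphate dehydrogenase that metformin has been reported to inhibit, was at 291, 319 and 458 under metformin and 539, 605 and 492 under rapamycin. Ppargc1a, the coactivator of mitochondrial and gluconeogenic genes, was at 89.9, 65.8 and 68.1 under metformin and 170, 93.3 and 96.1 under rapamycin. The groups did not overlap for any of these 3 genes. Complex I itself showed a median log2 ratio of 0.07 over 37 subunits with 0 at 2-fold, and the other respiratory chain subunits a median of 0.06 over 40, also with 0.

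Glucose production genes split by enzyme. G6pc, which releases free glucose, had a mean of 3610 under metformin and 2337 under rapamycin, while Pck1, which commits oxaloacetate to gluconeogenesis, had 17235 and 22789. Foxo1, the insulin-inhibited transcription factor that drives both, was at 281, 435 and 332 under metformin and 563, 524 and 520 under rapamycin, a log2 ratio of -0.61 with no overlap. The aminotransferase Tat, a glucocorticoid-induced gene, had means of 14070 and 22434. None of the 23 listed gluconeogenesis genes was 2-fold apart, and their median was -0.10.

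In the insulin receptor, FOXO and lipin list, 2 of 21 genes were at least 2-fold lower and 0 higher, with a median of -0.12. Igfbp1, a secreted IGF-binding protein that insulin represses, had a mean of 1171 under metformin and 9317 under rapamycin, a log2 ratio of -2.99. It has no values per library, so the part of rapamycin library A in that mean is not known. The control mean was 3625, and the authors' deposited table called Igfbp1 for neither compound (metformin -1.63, adjusted p 0.834, and rapamycin 1.36, adjusted p 0.594). Irs2, the insulin receptor substrate that is likewise repressed by insulin, was at 157, 45.7 and 58.5 in the metformin libraries and 1097, 244 and 101 in the rapamycin libraries. All 3 metformin values of Irs2 fell under the A and B rapamycin values, but metformin A lay above rapamycin C. Without rapamycin library A the log2 ratio of Irs2 was -0.98 in place of -2.45, and limma gave an adjusted p of 0.603. Igfbp1 and Irs2 were the 2 members past 2-fold. Igfbp2, another IGF-binding protein, leaned the other way with means of 5550 and 2822, and Igf1 was level at 4160 and 4096.

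Fatty acid oxidation genes were lower under metformin almost throughout. Of 40 listed genes, 39 had a negative log2 ratio and 1 a positive one, with a median of -0.27 beside 0.00 over all genes. Those at least 2-fold lower numbered 4, and 0 were 2-fold higher. They were targets of the lipid-sensing receptor PPARalpha: Cyp4a14 and Cyp4a10, microsomal fatty acid omega-hydroxylases, had means of 1681 and 999 under metformin against 6428 and 2601 under rapamycin, and Acot1, a cytosolic acyl-CoA thioesterase, had 192 against 487. Reads of near-identical copies in the Cyp4a and Acot families can be split between copies by the counting, so these 3 are uncertain as single genes. Vnn1, a pantetheinase that recycles vitamin B5 and the fourth of them, could be followed in each library. It stood at 232, 235 and 320 normalized counts in the metformin libraries and 565, 593 and 581 in the rapamycin libraries. The lowest rapamycin value of Vnn1 was well above the highest metformin value, and limma estimated a log2 difference of -1.16 ± 0.14 (SE) with an adjusted p of 0.14.

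The rest of the pathway had smaller ratios of the same sign. Acot2, a mitochondrial thioesterase, was at 46.4, 32.4 and 52.5 under metformin and 70.2, 82.6 and 94.1 under rapamycin. Among the abundant enzymes, Ehhadh of peroxisomal oxidation had a log2 ratio of -0.56 and Cpt1a, the mitochondrial gatekeeper, one of -0.37. Crat, carnitine acetyltransferase, is outside the list and was at 336, 249 and 314 under metformin and 526, 588 and 531 under rapamycin, with limma's adjusted p at 0.213. Of the 7 recovered list members, rapamycin library A was the highest library for 0 and rapamycin C for 5. The median over the 7 was -0.67 with all libraries and -0.77 without rapamycin A. Vnn1 and Acot2 were the only 2 of the 7 that were lower without overlap, and 0 were higher without overlap. Over all recovered genes, 6.26% were lower and 7.76% higher without overlap. Acot2 and Ehhadh were picked here after their values were seen. Crat was picked by the size of limma's p, so its separation of the groups is largely built in.

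**Figure D2:**
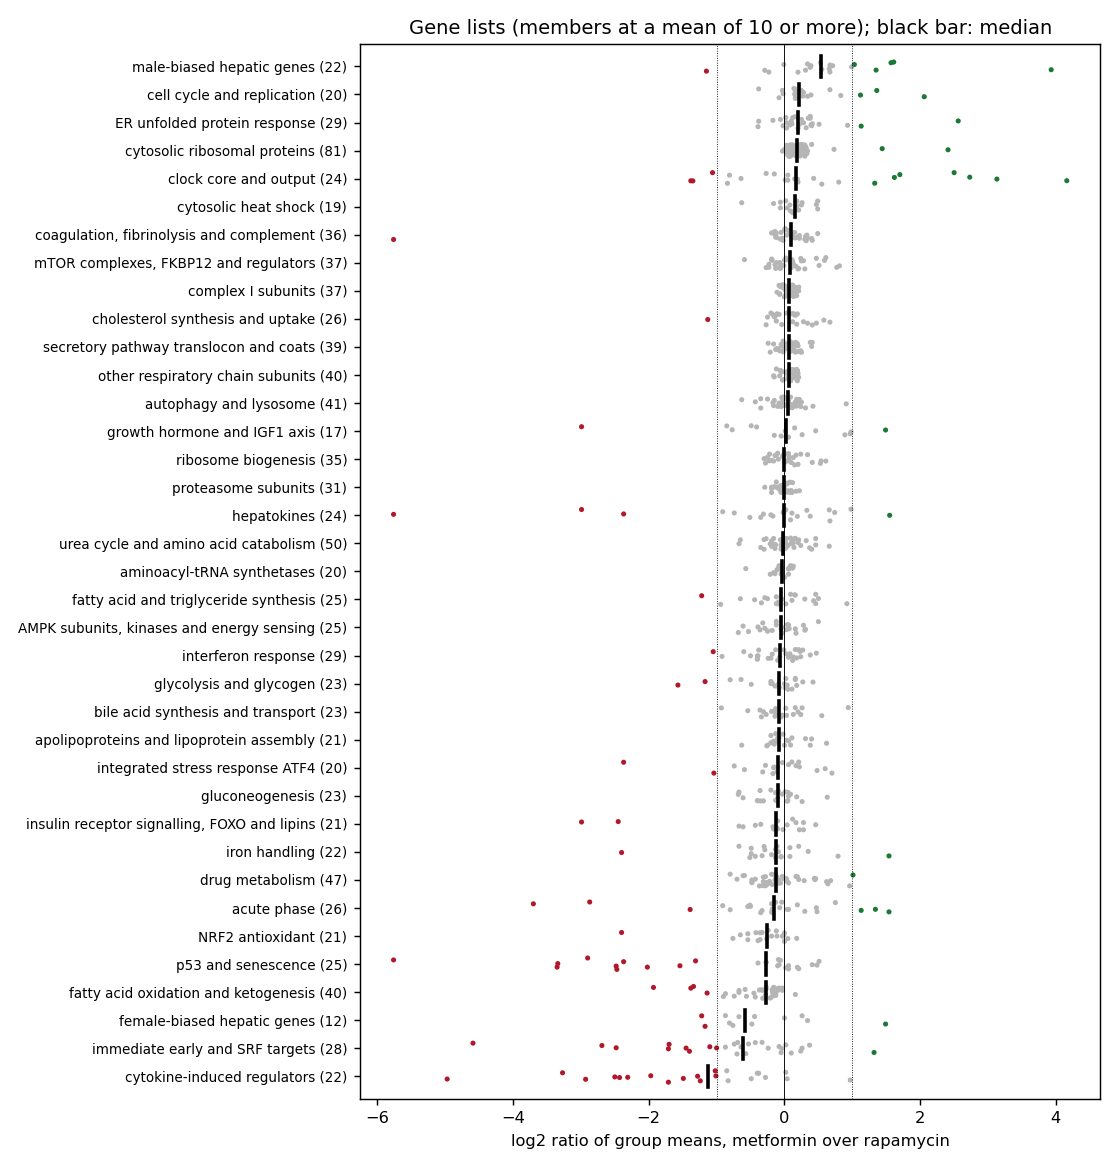
Log2 ratios of group means, metformin over rapamycin (horizontal axis), for the members of 37 pathway lists (rows, with the number of members at a mean of 10 or more in brackets). Points are genes, green where at least 2-fold higher under metformin and red where at least 2-fold lower, and the black bar is the list median. The median is lowest for cytokine-induced regulators at -1.13 and highest for male-biased hepatic genes at 0.54.

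Lipid synthesis genes differed less as a group. Fasn, fatty acid synthase, had means of 9678 under metformin and 6858 under rapamycin, Srebf1, the gene of the lipogenic factor SREBP1, had 1992 and 1448, and the lipogenic regulator Thrsp had 5867 and 3108. Elovl5, which elongates polyunsaturated fatty acids, leaned the other way at 4733 and 9081. The lipid droplet protein gene Cidea was at 6.77, 16.7 and 63.3 under metformin and 40.4, 49.6 and 116 under rapamycin, with overlap. It was the only one of 25 listed synthesis genes at least 2-fold lower, 0 were 2-fold higher and the median was -0.05. In the cholesterol list the median was 0.07 over 26 genes. Insig1, a sterol-dependent brake on the pathway, had means of 3511 and 2354, while Insig2, the isoform that is not under sterol control, had 1551 and 3396. Cyp7a1, the cholesterol hydroxylase that opens the classic route to bile acids, had means of 1627 and 848, and the rapamycin libraries alone ranged over 99.1, 710 and 1735.

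Among the 10 highest ratios were 4 clock genes, Dbp, Gm129, Per3 and Usp2, Dbp being the highest and Moxd1, Rpph1 and Lars2 next above Gm129. Of 24 listed core and output genes, 7 were at least 2-fold higher and 3 at least 2-fold lower, and the list median was 0.17. The mammalian clock is a feedback loop in which Arntl (BMAL1) and Clock drive Per, Cry and Rev-erb genes through E-boxes; Dbp, Tef and Hlf are output factors that act on D-boxes, where Nfil3 represses. Dbp had the highest ratio of any gene named here by rule, at 156, 940 and 793 normalized counts in metformin libraries A, B and C and 33.7, 33.1 and 36 in the rapamycin libraries. Every metformin value of Dbp exceeded every rapamycin value, and limma estimated 3.80 ± 0.59 (SE) on the log2 scale with an adjusted p of 0.213. Per3, a period gene with output character, was at 20.3, 89.3 and 148 under metformin and 11.5, 11.7 and 13 under rapamycin. Per2, a repressor in the core loop, was at 39.7, 127 and 138 under metformin and 32.7, 28.2 and 31 under rapamycin. In all 3 genes the rapamycin libraries sat close together and metformin library A was the lowest of its group. The hour of collection is not given in the labels, and its part in the values of the clock genes was not tested.

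In other output genes metformin library A lay within or below the rapamycin range. Usp2, a ubiquitin protease under clock control, was at 18.4, 829 and 321 in metformin libraries A, B and C and 68.3, 55.4 and 80.1 in the rapamycin libraries. Gm129, now called Ciart and encoding a repressor of BMAL1, was at 0.967, 209 and 88.4 under metformin and 14.4, 2.92 and 14 under rapamycin. Wee1, a cell cycle kinase under clock control, was at 26.1, 68.1 and 134 under metformin and 31.7, 20.4 and 20 under rapamycin. The groups overlapped for these 3 through metformin library A alone. Tef had means of 968 and 384, and its 3 rapamycin values were 416, 351 and 384.

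Arntl and Clock, the positive arm, were lower in metformin libraries B and C than in any rapamycin library. Arntl was at 137, 6.69 and 15.5 in metformin libraries A, B and C and 117, 134 and 159 in the rapamycin libraries, so that metformin A lay within the rapamycin range and B and C far below it. Clock itself was at 322, 138 and 199 under metformin and 382, 455 and 318 under rapamycin, with metformin A just above rapamycin C. Cry1 was lower without overlap at 96.7, 51.3 and 58.5 against 127, 127 and 117, and Cry2 higher without overlap at 173, 215 and 201 against 153, 97.2 and 87.1. Nfil3 was at 232, 481 and 176 under metformin and 908, 638 and 776 under rapamycin, also without overlap. Nr1d1 (REV-ERBalpha) was near level, with means of 596 and 578. Without metformin library A, limma called 13 genes at an adjusted p under 0.05, 8 of them higher under metformin. They included Dbp (log2 difference 4.62, adjusted p 6.67e-05 by limma), Per3 (3.15, 0.0262), Per2 (2.08, 0.0262) and Arntl (-3.60, 0.0262). Metformin library A was singled out above by the values of these same clock genes, so low p-values without it are partly built in. With all 6 libraries limma's adjusted p was 0.213 for Dbp and 0.465 for Per3. Per2, Wee1, Arntl, Clock, Cry1, Cry2 and Nfil3 were picked from the list after their values were seen.

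**Figure D3:**
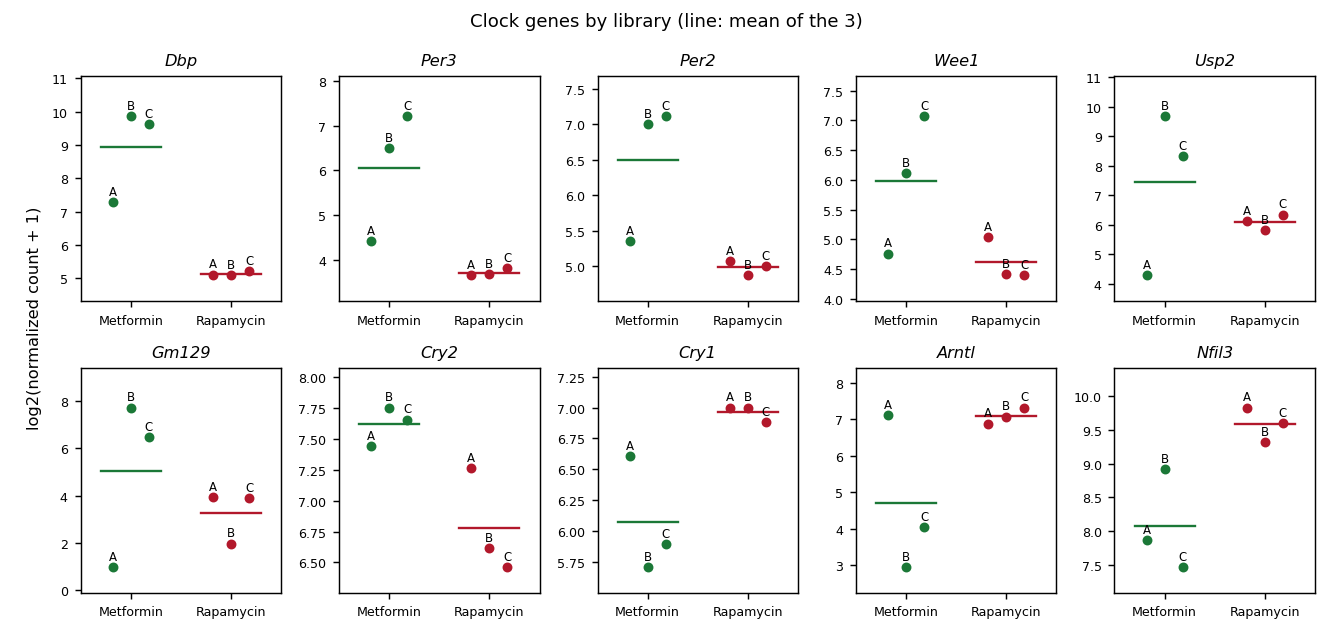
Log2 of the normalized count plus 1 (vertical axes, each on its own scale) for 10 clock genes, with the 3 metformin libraries in green on the left and the 3 rapamycin libraries in red on the right of each panel; letters name the libraries and lines are group means of the log2 values. Metformin library A lies nearest the rapamycin libraries for Dbp, Per3, Per2, Wee1 and Arntl, and below them for Usp2 and Gm129.

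Promoters of 17 of 21 genes looked up for these results were in the RefSeq promoter table (GRCm38.p6), which spans 250 bases before to 50 after a start. The promoters of Gm129 and Per3 are shown, 5′ to 3′ on the gene's strand, since the pair carries different clock motifs. Capitals mark the E-box CACGTG in Gm129 (minus strand, chr3:95882179-95882478), which holds 3 copies, and the D-box TTATGTAA, searched together with TTACGTAA on both strands, in Per3 (minus strand, chr4:151044616-151044915), which holds 2.
Gm129 (Ciart): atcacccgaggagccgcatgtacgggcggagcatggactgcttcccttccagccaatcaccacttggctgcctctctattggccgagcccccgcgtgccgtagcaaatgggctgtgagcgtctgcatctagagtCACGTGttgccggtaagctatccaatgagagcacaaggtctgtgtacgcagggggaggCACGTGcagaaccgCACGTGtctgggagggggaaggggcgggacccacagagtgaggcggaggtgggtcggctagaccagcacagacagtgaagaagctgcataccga
Per3: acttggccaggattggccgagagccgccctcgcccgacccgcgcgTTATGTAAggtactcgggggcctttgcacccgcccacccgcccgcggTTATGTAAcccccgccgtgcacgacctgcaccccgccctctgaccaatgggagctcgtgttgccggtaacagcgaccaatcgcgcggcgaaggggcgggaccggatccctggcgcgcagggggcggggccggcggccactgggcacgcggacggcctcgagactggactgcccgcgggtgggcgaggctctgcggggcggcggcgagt
Over all 32851 promoters of the same length, 7.15% held the E-box and 1.06% a D-box. The Tef promoters at 2 start sites each held 1 E-box, and those of Dbp and Usp2 held neither motif in this window. Gm129 and Per3 had log2 ratios of 3.13 and 2.73.

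The lowest ratios included chemokine and cytokine-response genes. Of 22 listed cytokine-induced regulators, 13 were at least 2-fold lower under metformin and 0 at least 2-fold higher, with a median log2 ratio of -1.13. In whole tissue, fewer cells of one type and less RNA per cell cannot be told apart. Cxcl2, a neutrophil-attracting chemokine, had 0, 2.23 and 3.58 normalized counts in the metformin libraries and 323, 0 and 2 in rapamycin libraries A, B and C. Its mean under rapamycin, 108, was that of 1 library, and without it the log2 ratio was 0.55 in place of -5.22. Ier3, an immediate early survival gene, was at 10.6, 8.93 and 14.3 under metformin and 867, 12.6 and 9.01 under rapamycin. Tlr2, the receptor for bacterial lipoproteins, was at 19.3, 12.3 and 23.9 against 748, 14.6 and 12, and Il1rn, the IL-1 receptor antagonist, at 16.4, 10 and 2.39 against 395, 6.8 and 8.01. In each of these 4 genes rapamycin B and C were in or just under the range of the metformin libraries, and the log2 ratios of Ier3, Tlr2 and Il1rn without rapamycin A were 0.06, 0.45 and 0.34.

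A smaller number stayed lower under metformin without that library. Cxcl10, an interferon-induced chemokine, was at 5.8, 5.58 and 4.78 under metformin and 517, 17.5 and 16 under rapamycin, with a log2 ratio of -1.48 without rapamycin A and -4.85 with it. Pim1, a cytokine-induced kinase, was at 66.7, 117 and 64.5 under metformin and 902, 367 and 151 under rapamycin, with -1.64 without rapamycin A and -2.50 with it. Gadd45b, a stress-induced growth arrest gene, was at 31.9, 68.1 and 35.8 under metformin and 1237, 71.9 and 105 under rapamycin, with -0.95 without rapamycin A and -3.35 with it. In these 3 genes the groups did not overlap, and the 3 rapamycin values differed among themselves far more than the 3 metformin values. Limma's adjusted p was 0.585 for Cxcl10, 0.464 for Pim1 and 0.609 for Gadd45b.

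The most abundant members of the group could not be split into libraries under rapamycin. Tnfaip3 (A20, a brake on NF-kappaB) had means of 22.3 under metformin and 727 under rapamycin, Nfkbiz (IkappaB-zeta) 69 and 674, Socs3 (the inducible inhibitor of IL-6 signalling) 173 and 1323, and Rnd1, a small GTPase, 36.2 and 975. Metformin values of Tnfaip3 were close together at 26.1, 15.6 and 25.1, and those of Socs3 were not, at 48.4, 326 and 146. Over the 10 recovered members of the regulator list the median was -0.45 with all libraries and -0.14 without rapamycin A, and the number at least 2-fold lower was 4 with all and 1 without it. Rapamycin A was the highest of the 6 libraries for 6 of these 10 members.

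**Figure D4:**
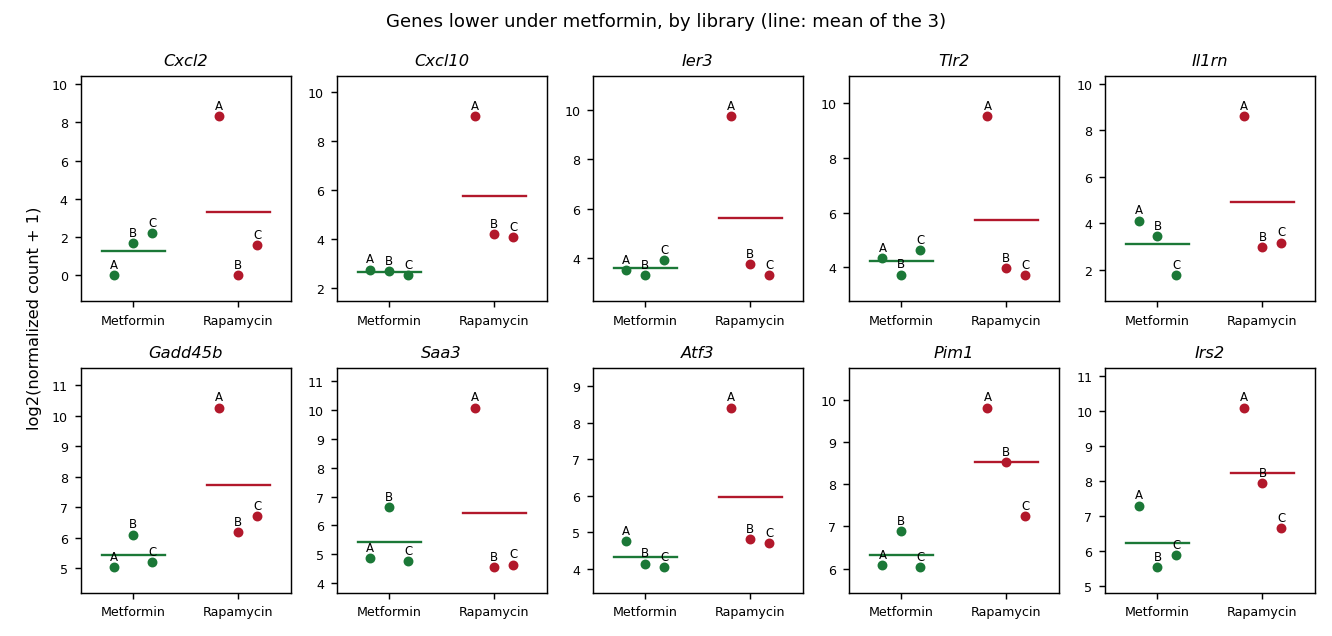
Log2 of the normalized count plus 1 (vertical axes, each on its own scale) for 10 genes lower under metformin, with the 3 metformin libraries in green on the left and the 3 rapamycin libraries in red on the right; letters name the libraries and lines are group means of the log2 values. Rapamycin library A is the highest of the 6 in every panel, and for Cxcl2, Ier3, Tlr2 and Il1rn rapamycin B and C lie among or below the metformin libraries.

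Neutrophil markers followed the same library. The 4 of 10 listed markers at a mean of at least 10 summed to 10.6, 122 and 56.1 normalized counts in metformin libraries A, B and C and to 379, 63.2 and 68.1 in the rapamycin libraries. S100a9, a calcium-binding alarmin of neutrophils, was at 4.84, 51.3 and 13.1 under metformin and 188, 22.4 and 22 under rapamycin, with a log2 ratio of 0.06 without rapamycin A. Rapamycin A was the highest library for all 4 markers. Kupffer cell markers did not show this, the 12 with values per library summing to 1214, 1476 and 1784 under metformin and 1884, 1982 and 1151 under rapamycin and a median ratio of -0.10 over 13 genes. No T or NK cell marker reached a mean of 10 and 1 B or plasma cell marker did. The part of these cells in the cytokine-response values was not tested.

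The promoters of the chemokines Cxcl10 (minus strand, chr5:92348840-92349139) and Cxcl2 (plus strand, chr5:90903649-90903948) are shown because both genes were low in all metformin libraries and high in rapamycin A. Capitals mark matches to an NF-kappaB site written as GGGNNNTTCC, searched on both strands, of which the Cxcl10 promoter held 2 and the Cxcl2 promoter 3, with overlap between a pair of them.
Cxcl10: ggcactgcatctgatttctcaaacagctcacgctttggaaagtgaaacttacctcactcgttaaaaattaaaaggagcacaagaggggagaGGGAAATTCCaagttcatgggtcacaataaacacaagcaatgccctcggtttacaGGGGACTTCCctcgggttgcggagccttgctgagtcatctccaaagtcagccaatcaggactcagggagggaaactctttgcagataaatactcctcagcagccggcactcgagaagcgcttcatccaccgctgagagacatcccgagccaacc
Cxcl2: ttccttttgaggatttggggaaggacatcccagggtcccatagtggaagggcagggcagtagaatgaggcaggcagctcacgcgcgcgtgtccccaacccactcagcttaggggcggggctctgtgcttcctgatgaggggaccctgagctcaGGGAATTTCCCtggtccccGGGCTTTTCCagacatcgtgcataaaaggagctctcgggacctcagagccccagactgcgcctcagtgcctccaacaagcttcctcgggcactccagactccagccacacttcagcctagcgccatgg
Of all promoters of this length, 5.56% held such a match. The Tlr2 promoter held 1, and the Ier3 and Gadd45b promoters held none in this window.

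Immediate early and growth arrest genes overlapped with this pattern. Of 28 immediate early and SRF target genes, 8 were at least 2-fold lower and 1 at least 2-fold higher, with a median of -0.61; over the 20 recovered, the median was -0.39 with all libraries and -0.13 without rapamycin A, and the number at least 2-fold lower was 4 with all and 0 without it. Atf3, a stress-induced repressor, was at 26.1, 16.7 and 15.5 under metformin and 339, 27.2 and 25 under rapamycin, with a log2 ratio of -0.41 without rapamycin A and -2.69 with it. Junb and Btg2 had means of 702 and 237 under metformin against 2298 and 1332 under rapamycin. Srf itself was at 128, 112 and 99.1 against 158, 122 and 121. Of 25 p53 and senescence genes, 10 were at least 2-fold lower and 0 higher; of the 18 recovered, 4 were at least 2-fold lower with all libraries and 0 without rapamycin A, and their median was -0.08 with all and 0.02 without it. Cdkn1a (p21) had means of 171 and 1276 with 328 in controls. Trp53, Mdm2 and Bax had ratios of -0.08, -0.27 and -0.27; these 3 were picked after their values were seen.

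Hmox1, heme oxygenase, had means of 180 under metformin and 952 under rapamycin, and its metformin values ranged over 63.8, 370 and 106. Gdf15, a stress hormone, was at 26.1, 65.8 and 7.16 under metformin and 439, 43.7 and 44 under rapamycin, with a log2 ratio of -0.40 without rapamycin A and -2.37 with it.

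The acute phase list, made of liver proteins released during inflammation, pointed both ways. Of 26 genes, 3 were at least 2-fold lower and 3 at least 2-fold higher, with a median of -0.16. Of the 6 recovered, 3 were at least 2-fold higher and 2 lower with all libraries, and 4 and 0 without rapamycin A. Their median was 0.53 with all libraries, 1.13 without rapamycin A and -0.65 without metformin B. Saa3, the serum amyloid form made outside hepatocytes as well, was at 28, 98.2 and 26.3 under metformin and 1087, 22.4 and 24 under rapamycin, so its ratio of -2.87 became 1.10 without rapamycin A. The hepatocyte forms Saa1 and Saa2 were higher under metformin at means of 7622 and 5437 against 4545 and 3898, with control means of 696 and 450. Steap4, a metalloreductase induced by inflammation, had 2737 against 7179. Lcn2, the iron-scavenging lipocalin, had 523 against 981, and its metformin libraries were spread over 55.1, 1267 and 246. Orm2, an orosomucoid, was at 161, 592 and 88.4 against 224, 45.7 and 114. In Lcn2 and Orm2 metformin library B was the high one of its group. Interferon response genes were close to level, with 1 of 29 at least 2-fold lower, 0 higher and a median of -0.07. The one was Rsad2 (viperin), at 53.2, 37.9 and 31 under metformin and 84.6, 64.2 and 107 under rapamycin, without overlap.

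Endoplasmic reticulum folding genes were somewhat higher under metformin. Of 29 listed members of the unfolded protein response, 24 had a positive ratio and 5 a negative one, with a median of 0.20; 2 were at least 2-fold higher and 0 lower. Sdf2l1, an ER chaperone cofactor, was at 354, 474 and 248 under metformin and 216, 138 and 137 under rapamycin, without overlap, and limma gave 1.11 ± 0.26 (SE) with an adjusted p of 0.452. Creld2, an ER-resident disulfide isomerase, was at 514, 1494 and 500 under metformin and 586, 307 and 426 under rapamycin, so the groups overlapped and metformin B carried the mean. The chaperone BiP (Hspa5) had means of 12633 and 9734 with 6022 in controls, and Hsp90b1 had 9768 and 6857. Metformin library B was the highest of the 6 for 6 of the 8 recovered members. Fkbp11, an ER prolyl isomerase outside the list, separated the groups at 78.3, 115 and 86 against 41.4, 30.1 and 36. It was picked by the size of limma's p after values were seen, so that separation is largely built in.

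Creld2 (plus strand, chr15:88819396-88819695) is shown for its ER stress element, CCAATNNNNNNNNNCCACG on either strand, because 0.119% of all promoters in the table held one. The Hspa5 promoter held 1 as well and that of Sdf2l1 none in this window. The first capitals mark that element, here on the opposite strand, and the second a GGGNNNTTCC match.
Creld2: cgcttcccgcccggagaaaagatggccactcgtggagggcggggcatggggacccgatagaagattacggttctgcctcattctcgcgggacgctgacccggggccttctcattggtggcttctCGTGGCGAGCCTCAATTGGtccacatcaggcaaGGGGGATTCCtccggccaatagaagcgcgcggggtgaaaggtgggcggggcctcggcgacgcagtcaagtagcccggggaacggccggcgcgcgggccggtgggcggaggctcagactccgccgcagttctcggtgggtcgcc
Creld2 and Hspa5 had log2 ratios of 0.93 and 0.38 between the compounds. In the authors' deposited table Creld2 was called higher than control for metformin (adjusted p 0.000126) and not for rapamycin (log2 fold change 1.08, adjusted p 0.101); the means were 836 under metformin, 440 under rapamycin and 208 in controls.

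Genes with a sex bias in mouse liver, which growth hormone pulses set, had list medians of opposite sign. Of 22 male-biased genes, 18 had a positive ratio and 4 a negative one, with a median of 0.54; 5 were at least 2-fold higher under metformin and 1 lower. Of 12 female-biased genes, 4 had a positive ratio and 8 a negative one, with a median of -0.58. At least 2-fold higher was 1 of them, and 2 were at least 2-fold lower. Of the 5 recovered male-biased genes, 1 was higher without overlap and 0 lower. Their median was 0.99 with all libraries and 0.58 without metformin B. All 12 female-biased genes were recovered, and 1 was higher and 2 lower without overlap. Rapamycin C was the highest library for 7 of these 12. Mup7, a major urinary protein, had means of 54540 and 21350 and Selenbp2, a selenium-binding protein, 2971 and 1001; reads of their close paralogs may be shared with them, so neither value is certain for the gene alone. Ugt2b38, a glucuronosyltransferase, was at 89.9, 109 and 54.9 under metformin and 27.9, 30.1 and 23 under rapamycin, without overlap. Moxd1, a monooxygenase-like gene, was at 5.8, 226 and 1.19 against 6.73, 5.83 and 0, so its ratio of 3.93 was that of metformin library B. The female-biased Cyp2c40, again from a family of close copies, was at 41.6, 69.2 and 59.7 under metformin and 72.1, 88.5 and 130 under rapamycin, while Cyp39a1 and Fmo2 had positive ratios of 0.26 and 0.34. Socs2, a growth hormone target, ranged widely in both groups, at 453, 64.7 and 488 against 216, 218 and 78.1.

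Cell cycle genes leaned higher under metformin. Of 20 listed genes, 3 were at least 2-fold higher and 0 lower, with a median of 0.21. Ccnd1 (cyclin D1), which starts the passage through G1, was at 260, 405 and 513 under metformin and 68.3, 107 and 105 under rapamycin, without overlap. Limma gave 2.03 ± 0.27 (SE) for Ccnd1 with an adjusted p of 0.14, and the control mean of 217 lay between the groups. The replication helicase subunit Mcm6 was at 30, 20.1 and 43 against 11.5, 14.6 and 15, and Mcm5 at 17.4, 8.93 and 26.3 against 4.81, 5.83 and 8.01; both were picked after their values were seen. Cdk4, the partner of cyclin D1, was at 204, 209 and 165 against 142, 143 and 169, with overlap.

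Translation genes differed little. Of 81 cytosolic ribosomal protein genes, 79 had a positive ratio and 2 a negative one, with a median of 0.19; 2 were at least 2-fold higher and 0 lower. Over the 16 recovered, 2 were higher without overlap, against 7.76% of all recovered genes, among them Rpl22l1 at 248, 356 and 288 under metformin and 152, 201 and 182 under rapamycin. Rpl26, one of the 2 past 2-fold, was at 25.1, 58 and 91.9 against 0, 11.7 and 51; ribosomal protein genes have many processed copies that can take their reads. Metformin library B was the highest library for 11 of the 16. Their median was 0.26 with all libraries and 0.06 without metformin B, and the number at least 2-fold higher was 2 with all and 1 without it. Ribosome biogenesis had a median of 0.00 over 35 genes, aminoacyl-tRNA synthetases -0.03 over 20, proteasome subunits -0.01 over 31 and autophagy and lysosome genes 0.05 over 41, with 0 at 2-fold in each. Cad encodes the first enzyme of pyrimidine synthesis, a protein target of S6 kinase downstream of mTOR complex 1. Its values were 118, 133 and 115 under metformin and 85.6, 86.5 and 79.1 under rapamycin, without overlap, and the control mean was 66.4. The authors' deposited table called Cad higher than control for metformin (log2 fold change 0.87, adjusted p 0.0332) and not for rapamycin (0.33, adjusted p 0.623).

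Among the 10 highest ratios were also Rn45s, Rpph1 and Lars2. Rn45s, the ribosomal RNA precursor, had a mean of 366479 under metformin, 44095 under rapamycin and 17687 in controls, a share of 4.4% of all summed means with metformin against 0.555% with rapamycin. Rpph1, the RNA of RNase P, was at 68.7, 13.4 and 72.8 under metformin and 0.962, 0.972 and 8.01 under rapamycin. Lars2, the gene of the mitochondrial leucyl-tRNA synthetase, had means of 21730 under metformin, 2368 under rapamycin and 911 in controls. The log2 ratio of Lars2 was 3.20 and that of Rn45s 3.06. Whether the reads counted for Lars2 came from its own messenger RNA was not tested. The libraries were made by poly(A) selection, per the labels. The part of these RNAs in the other ratios was not tested; rescaling the means to the same sum without Rn45s and Lars2 left 115 genes at least 2-fold higher and 158 lower.

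Several genes with the steadiest separation were in no pathway list and, Clec2h apart, were picked by the size of limma's p after values were seen. Sphk2, which makes sphingosine 1-phosphate in the nucleus and mitochondria, was at 539, 587 and 542 under metformin and 257, 269 and 290 under rapamycin. Limma estimated 1.03 ± 0.11 (SE) for Sphk2, with the smallest adjusted p of all, 0.0897. Its gene model on chromosome 7 shares 737 bases with that of Dbp on the other strand (chr7:45709467-45710203, mm10, GENCODE), and no label or header used here states whether counting took account of strand. The metformin libraries were close together for Sphk2 and far apart for Dbp, and whether reads of Dbp were counted for Sphk2 was not tested. Cobl, an actin nucleator, was at 197, 193 and 235 under metformin against 107, 101 and 117 under rapamycin, and Fchsd2, a membrane-bending protein of endocytosis, at 144, 177 and 193 against 75, 92.4 and 78.1. Nedd4l, a ubiquitin ligase of membrane transporters, was lower at 351, 343 and 330 against 626, 556 and 521. Clec2h, a C-type lectin, was at 98.6, 66.9 and 39.4 against 11.5, 20.4 and 9.01. The groups did not overlap for any of these 5 genes, which, Clec2h apart, follows largely from the pick by p. With all 5 groups in the limma fit sharing one estimate of spread, 9 genes passed an adjusted p of 0.05, all higher under metformin, Dbp (0.00885) and Cobl (0.0123) among them.

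**Figure D5:**
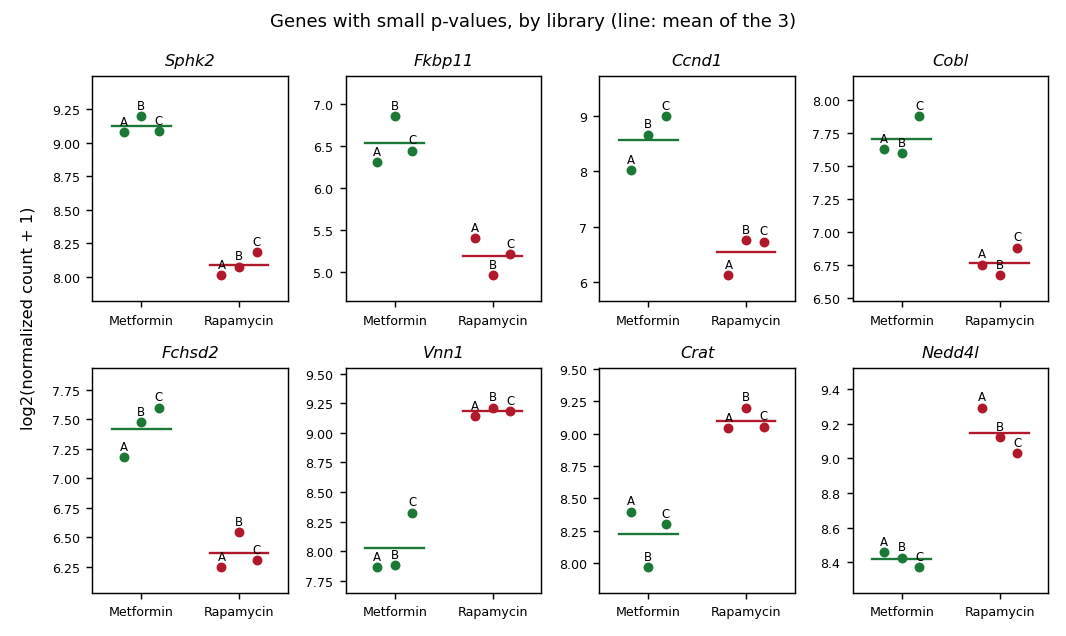
Log2 of the normalized count plus 1 (vertical axes, each on its own scale) for 8 genes with small limma p-values, with the 3 metformin libraries in green on the left and the 3 rapamycin libraries in red on the right; letters name the libraries and lines are group means of the log2 values. Sphk2, Fkbp11, Ccnd1, Cobl and Fchsd2 are higher in every metformin library than in any rapamycin library, and Vnn1, Crat and Nedd4l lower. The genes were chosen by small p, so this separation is largely built in.

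The authors' own calls against the shared control can be set beside the direct ratio. The authors' deposited table called 12 genes higher (0.163% of 7350 with an adjusted p) and 6 lower (0.0816%) for metformin, and for rapamycin 74 higher (0.714% of 10369) and 70 lower (0.675%), at an adjusted p under 0.05. Both sets use the same control. The mean of each compound enters both its own call and the ratio, so a direction shared between call and ratio is built in. Of the 70 genes the authors' deposited table called lower for rapamycin, 67 had a positive ratio of metformin over rapamycin and 11 were at least 2-fold higher. Of the 74 genes the authors' deposited table called higher for rapamycin, 71 had a negative ratio and 12 were at least 2-fold lower. All 12 genes called higher for metformin in the authors' deposited table had a positive ratio, and of these 2 were at least 2-fold higher, Rn45s and Lars2.

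Called for both compounds in the authors' deposited table were 5 genes, among them Agxt, Hyou1, Sec23b and Setdb2. Between the compounds these 4 had log2 ratios of 0.03, 0.22, 0.06 and 0.08. Setdb2, a histone methyltransferase, was at 86.1, 82.6 and 105 under metformin and 101, 84.6 and 74.1 under rapamycin, with 211 as the control mean. Agxt, the peroxisomal enzyme that detoxifies glyoxylate, had means of 2097 and 2048 with 2844 in controls, and Hyou1, an ER chaperone, 2233 and 1922 with 1134 in controls. In the authors' deposited table the log2 fold changes of Setdb2 were -1.21 for metformin (adjusted p 0.00743) and -1.29 for rapamycin (adjusted p 0.0022). Dbp was called for rapamycin alone in the authors' deposited table (-2.37, adjusted p 0.00787), where metformin had 1.83 with an adjusted p of 0.141. Clec2h was likewise called lower for rapamycin in the authors' deposited table, at -1.93 (adjusted p 0.00274). Cyp4a14 and Vnn1 were called higher for rapamycin in the authors' deposited table, at 1.28 (adjusted p 0.00817) and 0.96 (0.0495), where metformin had -0.66 and -0.18.

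At the expression threshold, Ccl2 was the last gene inside with a mean of 10 over the 5 groups and a log2 ratio of -3.34, and Cenpm the first outside at 9.992 with a ratio of 0.14.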

How the data were processed

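Liver poly(A) RNA of 3 metformin-fed and 3 rapamycin-fed C57BL/6J mice was compared, out of 18 libraries. Reads were aligned with HISAT2 2.0.5 to mm10, per the submitters' processing notes. The deposited table holds, per its header, group means of DESeq2-normalized counts (a signal scaled by size factors), and the authors' log2 fold changes and adjusted p-values against control; the authors deposited no error with the means. A further deposited table holds 18 columns of normalized values whose names match no label; it was not used. Series notes speak of more mice than the listed groups sum to.

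Each group mean is the sum of whole reads from 3 libraries, each times a constant step. The steps were found from the low means, and reads were solved exactly for means under 1000; a gene was kept only where the solution was unique in all 6 libraries. Below a mean of 150 all but 1 gene per group were unique. The sums of recovered reads do not give library depth, so depth is known only as size factors, 0.8376 to 1.0340 for metformin and 0.9993 to 1.0398 for rapamycin. The control mean likewise rests on 3 libraries, though 6 are labelled. Chi-square per degree of freedom between libraries of a group was 3.32 to 9.5, so none was a duplicate.

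The ratio used a pseudocount of 1 and the 5-group mean had to reach 10. limma 3.58.1 (R 4.3.3, empirical Bayes with trend) tested log2(normalized count + 1) per library, adjusted by Benjamini-Hochberg. The recovery of reads was checked on group means under 50 moved off by a random amount, which leaves higher means unchecked. The limma test was checked on simulated reads with the same spread for all genes and no library standing apart, unlike these libraries. The named genes are the 10 highest and 10 lowest ratios with at least 50 normalized counts in the higher group, the 4 largest ratios of each list, every gene the authors called for metformin, and a short list of pathway genes. Genes with the smallest p by limma were added after their values were seen. Lists (37 pathways and 14 sets of cell markers) are described by counts and medians only. The members and lists were chosen with earlier results of these data known. Symbols were used as deposited; 18 had been turned into dates and are not named, and some other genes are not reported here. Coordinates are from GENCODE on mm10 and promoters from RefSeq on GRCm38.p6.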

Additional observations from a re-analysis of the deposited data

How the results depend on the processing

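With other settings for the ratio, the number of genes at least 2-fold higher under metformin, 117 as reported, was 178 with no filter on low values, 46 at a mean of at least 50 and 551 at a fold of 1.5. The number at least 2-fold lower, 154 as reported, was 102 at a mean of at least 50 and 416 at a fold of 1.5. Pseudocounts of 0.5 and 5, centring on the median, and rescaling without Rn45s and Lars2 kept both counts within 1.5 times. Leaving out single libraries gave 111 to 168 recovered genes higher (104 with all) and 47 to 156 lower (108 with all), the 168 without rapamycin C and the 47 without rapamycin A. Among the 1032 list members, 26 were at least 2-fold higher, and 17 at a mean of at least 50, while 51 were at least 2-fold lower, and 46 at that mean (1.04% higher and 1.37% lower over all genes); of the recovered ones, leaving out single libraries gave 19 to 27 higher and 12 to 30 lower, against 21 and 25 with all, the 12 without rapamycin A.

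The limma test called 0 genes with a pseudocount of 5, with no filter, at a mean of at least 50, by voom and with median-ratio scaling. It called 9 with all 5 groups in the fit, among them Ccnd1, Clec2h, Cobl, Dbp, Eef2k, F3, Fkbp11 and Sphk2. Leaving out single libraries gave 0 to 13 calls: 13 without metformin A, 2 without metformin B (Aldh1b1 and Nfil3) and 1 without rapamycin C (Hbb-b2). The cause was not tested. At an adjusted p under 0.1, the authors' deposited table had 21 genes higher and 13 lower for metformin, and 132 higher and 119 lower for rapamycin. No paired analysis was possible because the recovered libraries carry no replicate number.

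Abundant genes lack values per library, so their ratios have no spread. With 3 libraries a group and 1 library standing apart under rapamycin, a gene that misses the threshold is not shown to be level between the compounds.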

Other observations

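Matrix and stellate cell genes were not described above. Of 14 stellate cell and fibroblast markers, 0 were 2-fold apart, 6 had a positive ratio and 8 a negative one, and the median log2 ratio was -0.01. The 3 collagen genes that follow are, with Lum, those that the rule for named genes gives. Col1a1, the main chain of type I collagen, was at 117, 114 and 154 normalized counts in the metformin libraries and 36.5, 79.7 and 88.1 in the rapamycin libraries. Col3a1 was at 339, 343 and 463 against 163, 265 and 315, and Col1a2 at 203, 171 and 199 against 79.8, 134 and 167. All 3 separated the groups, with rapamycin library A the lowest of the 6 in each, and limma gave adjusted p of 0.566, 0.585 and 0.597. Their log2 ratios were 0.90, 0.62 and 0.59 with all libraries and 0.61, 0.39 and 0.34 without rapamycin A. Of 4 cholangiocyte markers, 2 had a positive ratio and 2 a negative one. Their median was 0.28 with all libraries and -0.03 without rapamycin A. Sox9, a cholangiocyte and progenitor factor, was lower at 91.9, 60.2 and 66.9 against 261, 115 and 108. The log2 ratio of Sox9 was -1.13 with all libraries and -0.60 without rapamycin A. Spp1, of the same list, was higher without overlap at 295, 196 and 277 against 101, 192 and 174, with a log2 ratio of 0.71.

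Adipocyte genes were detected in every library. Lep (leptin) was at 256, 322 and 251 under metformin and 134, 205 and 243 under rapamycin, and Adipoq (adiponectin) at 140, 187 and 202 against 89.4, 145 and 162. Of 7 adipocyte markers, 6 had a positive ratio, with a median of 0.41 with all libraries and 0.20 without rapamycin A. Pericentral hepatocyte markers had 12 positive ratios of 13 with a median of 0.33, led by Cyp1a2, an aryl hydrocarbon receptor target, at means of 4194 under metformin and 2614 under rapamycin.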
